A study of Homo sapiens with 9 samples.

Results

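Chemokines, interleukins and their receptors were followed by 112 probe sets of the 53617 on the arrays. They were chosen by symbol: CCL, CXCL, CCR, CXCR, TNFSF or TNFRSF with a suffix, IL with a digit, or LIF. The probe sets stood for 110 symbols, out of 14884 genes named here, and divided into 63 for ligands, 35 for receptors and 14 for other symbols, such as antisense transcripts, decoys and a pseudogene. The symbol rule also asked for the TNF superfamily, but 0 probe sets carried a TNFSF symbol here. The 3 with a TNFRSF symbol were TNFRSF10A-DT, which had 2 probe sets, and TNFRSF14-AS1, which are non-coding neighbours of receptor genes. The set is therefore one of chemokines, interleukins and LIF with their receptors, and TNF superfamily ligands and receptors with those symbols were not analysed here.

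The RNA came from A549, an established human lung adenocarcinoma cell line that grows attached to plastic, after 5 days in 96-well plates in medium with 10% serum. In the first group the cells were on low-attachment plates in medium with FP001, an additive given at 0.015% (w/v) whose composition the labels do not state. In the second they were on low-attachment plates with water in its place, and in the third on ordinary attachment plates with water. Each group had 3 arrays, and the labels do not say whether the cultures were separate. The p-values measure the spread between these arrays, which may be technical.

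Chemokines are small secreted proteins that draw leukocytes along a gradient, and they act on G protein-coupled receptors. CXC chemokines with the ELR motif, among them CXCL2, CXCL3, CXCL5 and CXCL8, attract neutrophils through CXCR2, while CCL2 attracts monocytes through CCR2. Interleukin receptors of the type I class and the LIF receptor signal through JAK kinases and STAT factors, whereas receptors of the interleukin-1 and interleukin-17 families use adaptor proteins that lead to NF-kB. Epithelial tumour cells such as A549 are known to secrete neutrophil-attracting chemokines.

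One array stood apart and was left out of the values below. Attachment replicate 1 had a median intensity of 15.8, while the others had medians of 23.3 to 24.1. Its rank correlation with them was −0.00191 at most, and the remaining 8 correlated with each other at 0.961 to 0.985. That leaves 3 arrays with FP001, 3 low-attachment arrays and 2 attachment arrays, and this small number limits the precision of every value. Values are MAS5 intensities on a linear scale; differences are in log2 with the standard error (SE) of limma. A gene was called where the Benjamini-Hochberg adjusted p of limma over 10916 genes was under 0.05. Of the epithelial markers, 5 of 6 were named and all 5 lay above the array median on all 8 arrays. Their summed intensity was 5127 to 5686 with FP001, 4407 to 4746 on low-attachment plates and 4203 to 4359 on attachment plates. KRT18 made up most of these sums (3478 to 4579). KRT19 was higher on low-attachment plates with and without FP001 (310 to 666) than on attachment plates (160 and 212). KRT7 was lower on low-attachment plates (70.4 to 111 against 115 and 130). EPCAM was lower with FP001 (134 to 206 against 216 and 252). Of the 5, 2 rose and 1 fell with FP001, and 1 rose and 1 fell without, all against attachment plates. Of all genes tested, 19.5% and 10.1% were called. Of the 12 leukocyte markers 5 were named, with sums of 222 to 259, 240 to 257 and 209 to 258 in the same groups, of which CD14 (108 to 163) and CSF1R (28.6 to 43.3) lay above the median on all 8 arrays and CD53 below it on all 8. Of 8 fibroblast markers 3 were named, with sums of 134 to 493, 80.4 to 313 and 109.7 to 170, of which THY1 (51.2 to 78.1) and LUM (24 to 437) lay above the median on all 8 and DCN below it on all 8. Of 7 endothelial markers 5 were named, with sums of 126 to 163, 119 to 136 and 104 to 115, of which CLDN5 (40.5 to 64.4) lay above it on all 8 and KDR below it on all 8. Their part in the results below was not tested. In such bulk RNA fewer cells of a kind and less RNA per cell cannot be told apart.

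Fewer than 1 in 2 of the members were bright enough to test. Of the 112 probe sets, 53 lay at or above the median intensity on 3 or more of the 8 arrays (47.3%, against 72.7% of all named probe sets). The share was 47.6% for ligands and 45.7% for receptors. Of the 112, 40 lay above the median on all 8 arrays and 54 below it on all 8. The 53 probe sets stood for 52 genes, namely 30 ligands, 16 receptors and 6 others. A gene bright only on the 2 attachment arrays could not pass this filter, so some falls could not be tested.

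Against attachment plates, a few members moved and most did not pass the test. With FP001, 3 of the 52 rose and 3 fell (11.5%), while 19.5% of all genes tested were called in that comparison, 8.08% higher and 11.4% lower. On low-attachment plates without it, 1 rose and 5 fell (11.5%), while 10.1% of all genes were called, 4.31% higher and 5.76% lower. Between FP001 and low attachment alone 0 members were called by limma, 6 had an unadjusted p under 0.05, and 0.11% of all genes were called. With the replicate number as a block, a pairing inferred from these data, 2 members and 1.3% of all genes were called. In a moderated F-test over the 3 groups 5 members were called, while 14% of all genes were. Both comparisons with attachment plates use the same 2 attachment arrays, so their values stand side by side and are not independent. The groups did not overlap, in either direction, for 24 of the 52 members with FP001 against attachment (46.2%), and for 52.8% of all genes. For low attachment against attachment these were 22 members (42.3%) and 45.6%, and for FP001 against low attachment 8 (15.4%) and 17.5%. A lack of overlap is thus common on these arrays.

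LIF, a cytokine of the interleukin-6 family, fell on low-attachment plates with and without FP001. It had intensities of 93.4, 106 and 113 with FP001 and 81.2, 82.8 and 113 on low-attachment plates, against 165 and 183 on attachment plates. All 6 low-attachment arrays lay below both attachment arrays, and the groups with and without FP001 overlapped. LIF fell by 0.74 ± 0.15 on the log2 scale with FP001 (SE; limma adjusted p = 0.0077), a level 1.67-fold lower than on attachment plates. Without FP001 it fell by 0.93 ± 0.15 (adjusted p = 0.00421), which is 1.90-fold lower. The second call held in 8 of 8 fits that each left out 1 array, while the first was lost without attachment replicate 3 (adjusted p = 0.0611). LIFR, its receptor, had mean intensities of 61.5, 60.3 and 68.4 with FP001, on low attachment and on attachment plates. Its differences of −0.15 and −0.18 from attachment plates did not pass the test.

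**Figure D1:**
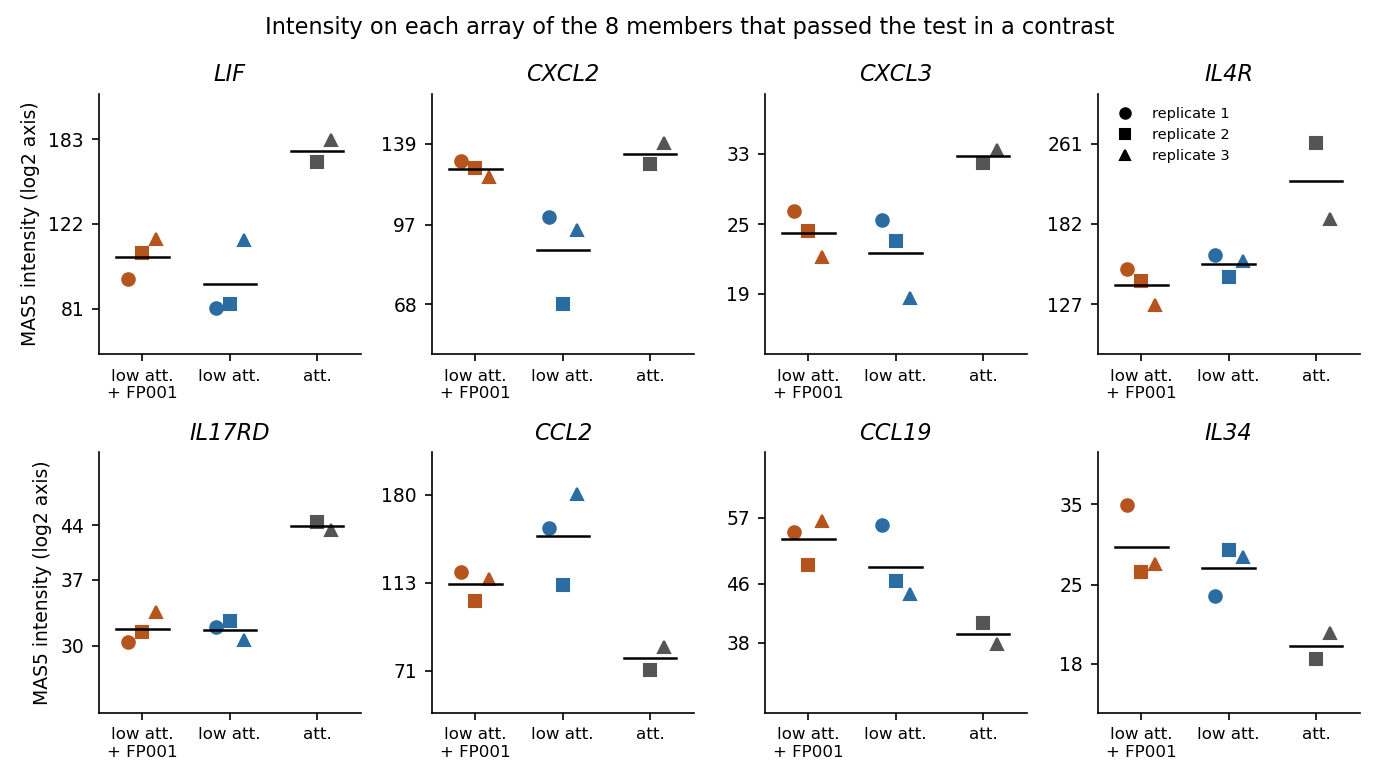
Intensity (log2 axis) of LIF, CXCL2, CXCL3, IL4R, IL17RD, CCL2, CCL19 and IL34 on each of the 8 arrays, with low attachment plus FP001 on the left, low attachment in the middle and attachment on the right. Points are arrays, marked by replicate number, and lines are the means of log2 values; LIF, IL17RD and IL4R sit lower on all 6 low-attachment arrays than on both attachment arrays, and CCL2, CCL19 and IL34 sit higher.

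CXCL2 and CXCL3, neutrophil-attracting CXC chemokines, fell on low-attachment plates without FP001, and with it CXCL2 was close to its level on attachment plates. CXCL2 had 129, 125 and 119.9 with FP001 and 100.4, 67.9 and 94.8 on low-attachment plates, against 127 and 139 on attachment plates. The 3 low-attachment arrays lay below all the others, while the FP001 and attachment arrays overlapped. Without FP001 CXCL2 fell by 0.62 ± 0.15 against attachment (SE; limma adjusted p = 0.0268), which is 1.54-fold lower. That call was lost without attachment replicate 2 (adjusted p = 0.102) or replicate 3 (0.155). With FP001 the difference from attachment was −0.09 ± 0.15 (adjusted p = 0.68). CXCL3 had 26.3, 24.3 and 21.9 with FP001 and 25.4, 23.4 and 18.7 on low-attachment plates, against 31.9 and 33.5 on attachment plates. All 6 low-attachment arrays were below both attachment arrays. CXCL3 fell by 0.55 ± 0.16 without FP001 (adjusted p = 0.0495), close to the threshold, and its difference with FP001 was −0.44 ± 0.16 (adjusted p = 0.0723). The call for CXCL3 was lost in 6 of 8 fits that left out 1 array, all but those without low-attachment replicate 1 or FP001 replicate 1. Its adjusted p was 0.168 without attachment replicate 2, 0.193 without replicate 3, 0.0793 and 0.119 without low-attachment replicates 2 and 3, and 0.0707 and 0.0569 without FP001 replicates 2 and 3. CXCL2 and CXCL3 are close relatives in sequence, and whether their probe sets read both was not tested.

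CXCL5 varied more between arrays of a group than the other chemokines of its kind described here, with an SD of log2 values of 0.37 with FP001, 0.43 on low-attachment plates and 0.50 on attachment plates. It had 3563, 2185 and 2475 with FP001 and 2351, 1400.3 and 1389 on low-attachment plates, against 3571 and 2191 on attachment plates. Replicate 1 was the highest array of its group both with and without FP001, and the groups overlapped. Against attachment plates its difference was −0.75 ± 0.27 without FP001 (SE; limma adjusted p = 0.108; 95% interval −1.35 to −0.15) and −0.06 ± 0.27 with it (adjusted p = 0.895). Without low-attachment replicate 1 the first of these was called (adjusted p = 0.0288). CXCL8, the best known neutrophil attractant, had 22.1, 20.1 and 19.9 with FP001 and 14.3, 13.8 and 16.2 on low-attachment plates, against 23.8 and 26.8 on attachment plates. It reached the array median only on the attachment arrays and so missed the filter, although the low-attachment arrays were below all others. It therefore has no test among the filtered genes. Without any filter, where 1 of the 58 symbols too dim to test was called in each comparison with attachment, its difference without FP001 was −0.78 ± 0.13 (adjusted p = 0.00723; 6.68% of all genes were called, and 13.3% with FP001).

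The labels give only a replicate number, and the pairing of low-attachment arrays with and without FP001 by it was inferred from these data. Within each such pair these 4 chemokines were higher with FP001. So were 17 of the 52 tested members (32.7%), LIF and IL18 among them, and 20.8% of all genes tested, while 5 members (9.62%) and 20.7% of all genes were lower in all 3 pairs. The ratio of FP001 to low attachment in pairs 1, 2 and 3 was 1.52, 1.56 and 1.78 for CXCL5. For CXCL2 it was 1.28, 1.84 and 1.26, for CXCL8 1.54, 1.45 and 1.23, and for CXCL3 1.04, 1.04 and 1.17. The ratios for CXCL3 stayed close to 1, whereas those for the other 3 were at least 1.23. In the fit without pairing neither CXCL5 (0.69 ± 0.24, adjusted p = 0.323) nor CXCL2 (0.53 ± 0.13, adjusted p = 0.200) was called between FP001 and low attachment. With the replicate number as a block both were called, CXCL5 at 0.69 ± 0.12 (adjusted p = 0.0247) and CXCL2 at 0.53 ± 0.11 (adjusted p = 0.0443), which are 2 of 52 members while 1.3% of all genes were called. That fit also put the block on the 2 attachment arrays, for which no pairing was taken. Both calls rest on the pairing inferred from these data. With the block on the 6 low-attachment arrays alone, a fit chosen after the data were seen, the same 2 genes were called (adjusted p = 4.53e-05 and 0.0204), while 4.27% of all genes were.

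**Figure D2:**
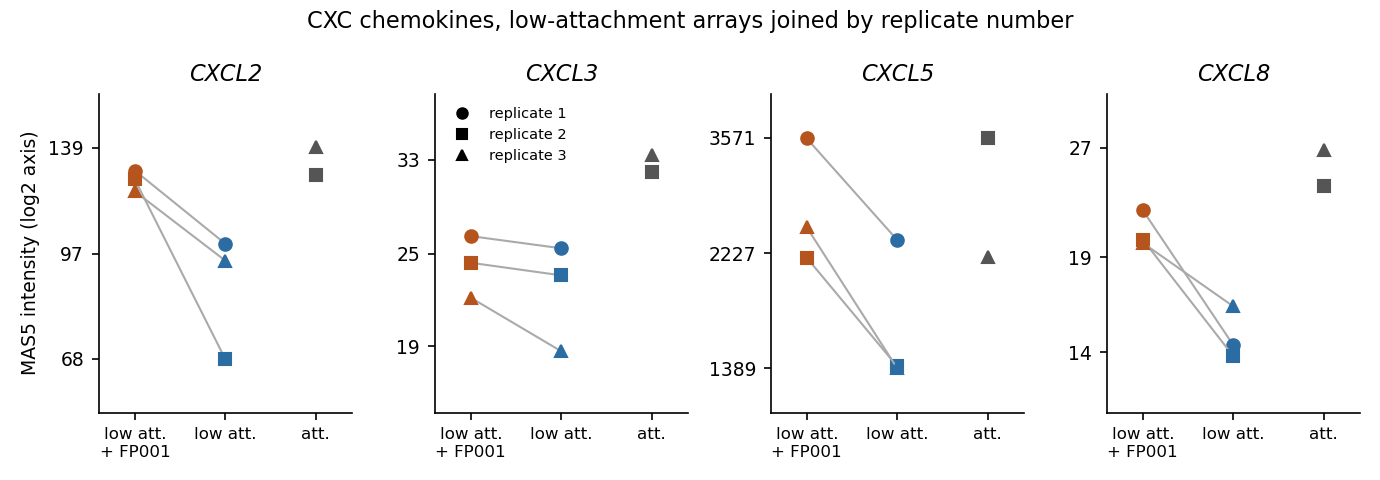
Intensity (log2 axis) of CXCL2, CXCL3, CXCL5 and CXCL8, with low attachment plus FP001 on the left, low attachment in the middle and attachment on the right; grey lines join low-attachment arrays of 1 replicate number. Every line slopes down from FP001 to low attachment, steeply for CXCL5 in pair 3 (ratio 1.78) and barely for CXCL3 in pairs 1 and 2 (ratio 1.04).

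These 4 genes lie on chromosome 4, and their promoters share a match to an NF-kB type motif. The promoter windows of 300 bases, from 250 bases before the gene start, are shown because the 4 genes stood side by side in the pairs. CXCL5 and CXCL8 were added after their values were seen, since they were not called in the first fit. In GRCh38.p14 (RefSeq) they are chr4:74099146-74099445, chr4:74038640-74038939 and chr4:73998628-73998927 on the minus strand and chr4:73740319-73740618 on the plus strand. Capitals mark the letters GGAATTTCC.
CXCL2: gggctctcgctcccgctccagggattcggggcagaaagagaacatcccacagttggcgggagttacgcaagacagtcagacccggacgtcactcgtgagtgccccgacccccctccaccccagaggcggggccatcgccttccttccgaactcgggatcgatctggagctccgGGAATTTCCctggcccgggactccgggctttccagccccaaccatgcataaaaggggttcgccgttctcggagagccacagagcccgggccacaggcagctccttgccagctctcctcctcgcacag
CXCL3: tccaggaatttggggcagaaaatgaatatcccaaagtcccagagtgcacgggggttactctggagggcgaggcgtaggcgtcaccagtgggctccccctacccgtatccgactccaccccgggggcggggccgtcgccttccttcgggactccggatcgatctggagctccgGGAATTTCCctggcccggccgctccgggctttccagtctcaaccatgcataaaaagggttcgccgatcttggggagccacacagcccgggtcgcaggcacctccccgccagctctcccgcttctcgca
CXCL5: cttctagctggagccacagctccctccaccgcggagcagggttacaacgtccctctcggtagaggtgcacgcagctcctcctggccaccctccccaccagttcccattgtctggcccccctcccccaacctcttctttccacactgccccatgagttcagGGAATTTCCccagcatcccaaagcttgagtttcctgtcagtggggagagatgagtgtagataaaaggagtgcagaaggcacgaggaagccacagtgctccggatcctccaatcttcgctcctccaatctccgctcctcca
CXCL8: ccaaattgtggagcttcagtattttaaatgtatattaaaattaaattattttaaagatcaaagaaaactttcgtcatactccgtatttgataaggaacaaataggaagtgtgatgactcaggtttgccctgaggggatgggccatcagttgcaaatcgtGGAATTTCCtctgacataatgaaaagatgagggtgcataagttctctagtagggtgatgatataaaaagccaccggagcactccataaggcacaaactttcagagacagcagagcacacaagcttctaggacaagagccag
The match starts at base 174 of the window in CXCL2, 173 in CXCL3, 161 in CXCL5 and 160 in CXCL8, which is 77, 78, 90 and 91 bases before the gene start. Over 49 bases around the match CXCL2 and CXCL3 were identical at 40 positions (81.6%), while the other pairs were identical at 36.7 to 46.9%. Both strands were searched, and GGAATTTCC was found in 162 of 35116 RefSeq promoters (0.461%), and in 8 of the 82 member symbols that had a promoter. Of the 8, 7 were CXC ligands, out of 12 CXC ligands with a promoter, and CXCL6, CXCL10 and CXCL11 among them were too dim to test. A longer NF-kB consensus with free bases in its middle, which can overlap with the first, was found in 10 of the 82 and in 1.91% of all promoters. TGANTCA, an AP-1 type motif, was found in 18 of the 82, CXCL8 among them, and in 7.71% of all promoters. TTCNNNGAA, a STAT type motif, was found in 16 of the 82 and in 7.66% of all. A match is a description of letters and not of binding.

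Of the 13 CXC ligands, 6 were tested. On low-attachment plates 5 of the 6 had a difference below 0 from attachment, where 48.5% of all genes tested did. Their median was −0.35 on the log2 scale, against 0.01 over all genes. Between FP001 and low attachment 5 of the 6 were above 0, where 51.6% of all genes were, with a median of 0.18. This was not particular to CXC ligands. Of the 12 interleukin or LIF ligands tested 10 were above 0 there, with a median of 0.17, and so were 38 of all 52 tested members. CXCL12, CXCL16 and CXCL17 did not pass the test in any comparison. CXCL16, a membrane-bound ligand of CXCR6, had 265, 231 and 249.5 with FP001 and 300.0, 226 and 258 on low-attachment plates, against 258 and 215 on attachment plates, and the groups overlapped. CXCL12, the ligand of CXCR4, ranged from 25.7 to 37.3 over the 8 arrays, and CXCL17 from 21.6 to 34.5.

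Among the CC chemokines CCL2 rose in both comparisons with attachment plates and CCL19 in that with FP001. CCL2 had 119.9, 103 and 115 with FP001 and 151, 112 and 180.2 on low-attachment plates, against 71.2 and 80.7 on attachment plates. All 6 low-attachment arrays were above both attachment arrays. CCL2 rose by 0.57 ± 0.17 with FP001 (SE; limma adjusted p = 0.0424), 1.48-fold, and by 0.93 ± 0.17 without it (adjusted p = 0.00815), 1.91-fold. In every pair the FP001 array was the lower one, at 0.794, 0.92 and 0.639 times its low-attachment partner, yet the difference of −0.37 ± 0.15 was not called (adjusted p = 0.399, and 0.12 with the replicate block). The call without FP001 was lost only without attachment replicate 2 (adjusted p = 0.0845). The call with FP001 was lost in 5 of 8 such fits, with adjusted p = 0.235 without attachment replicate 2, 0.0924 without replicate 3, and 0.102, 0.0611 and 0.0862 without FP001 replicates 1, 2 and 3.

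CCL19, a ligand of CCR7 that guides lymphocytes and dendritic cells, had 54.4, 49.0 and 56.5 with FP001 and 55.7, 46.5 and 44.6 on low-attachment plates, against 40.5 and 37.8 on attachment plates. The 6 low-attachment arrays again lay above both attachment arrays. It rose by 0.44 ± 0.12 with FP001 (SE; limma adjusted p = 0.0325), 1.36-fold, and its difference without FP001 was 0.32 ± 0.12 (adjusted p = 0.139). The call was lost without attachment replicate 2 (adjusted p = 0.104) or 3 (0.146) and without FP001 replicate 1 (0.0773) or 3 (0.0725). CCR7 itself had 38.1, 46.5 and 41.6 with FP001 and 46.0, 46.1 and 43.7 on low-attachment plates, against 56.0 and 50.8 on attachment plates, and differed by −0.35 ± 0.12 with FP001 (adjusted p = 0.0577).

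Of the 22 CC ligands 12 were tested, and 10 of the 12 had a difference above 0 from attachment in each of the 2 comparisons, with medians of 0.14 with FP001 and 0.10 without. Over all genes tested 52.5% and 51.5% were above 0. CCL3 and CCL4, macrophage inflammatory proteins, were not called. CCL3 had 29.2, 28.2 and 18.4 with FP001 and 43.3, 25.2 and 36.6 on low-attachment plates, against 19.7 and 30.5 on attachment plates, and all groups overlapped. Its difference between FP001 and low attachment, −0.46 ± 0.24, was not called (adjusted p = 0.507). CCL4 had 23.2, 19.9 and 26.1 with FP001 and 26.9, 32.5 and 27.3 on low-attachment plates, against 33.5 and 29.5 on attachment plates. Its difference with FP001 from attachment was −0.45 ± 0.15 (adjusted p = 0.0608), and the FP001 arrays lay below all others. Without FP001 replicate 3 it was called (adjusted p = 0.0414). CCL5, CCL17, CCL22 and CCL27 had intensities between 36.6 and 51.5, with differences of 0.02 to 0.20 from attachment plates that were not called.

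Besides LIF, 1 interleukin ligand was called. IL34, a ligand of the macrophage receptor CSF1R, had 34.8, 26.4 and 27.3 with FP001 and 23.8, 28.9 and 28.0 on low-attachment plates, against 18.3 and 20.5 on attachment plates. It was higher on all 6 low-attachment arrays. Both attachment arrays lay below the array median, so IL34 entered the test only through the groups where it was high, and its call is not independent of that filter. It rose by 0.60 ± 0.16 with FP001 (SE; limma adjusted p = 0.0258), 1.51-fold. Without FP001 the difference was 0.47 (adjusted p = 0.0868). The call was lost without attachment replicate 2 (adjusted p = 0.158) or 3 (0.0652) or FP001 replicate 1 (0.0733). CSF1R, which is also 1 of the leukocyte markers, rose with FP001 by 0.42 ± 0.13 (adjusted p = 0.0482), with mean intensities of 40.2 with FP001, 35.7 on low-attachment plates and 29.98 on attachment plates. That call held in 1 of 8 fits that left out 1 array, with an adjusted p up to 0.204 without attachment replicate 3.

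IL18, an interleukin-1 family cytokine stored as a precursor in epithelial cells, had 364, 338 and 327 with FP001 and 268, 328 and 291 on low-attachment plates, against 414 and 348 on attachment plates. The 3 low-attachment arrays were below both attachment arrays, and the difference of −0.37 ± 0.11 just missed the threshold (adjusted p = 0.0632). With low-attachment replicate 2 left out it was called (adjusted p = 0.0484). With FP001 the difference was −0.15 (adjusted p = 0.372). IL11, another cytokine of the interleukin-6 family, had 116, 100.1 and 82.5 with FP001 and 92.6, 93.1 and 77.5 on low-attachment plates, against 91.9 and 122 on attachment plates, and all groups overlapped. Of the 6 interleukin-17 ligands 4 were tested (IL17B, IL17C, IL17D and IL25), none was called, and their differences from attachment lay between −0.03 and 0.18. IL15, IL16, IL13 and IL27 had no call either.

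The 2 receptors called were both lower off the attachment plates. IL4R, the chain that interleukin-4 and interleukin-13 receptors share, had 149, 141 and 127 with FP001 and 158, 144 and 154 on low-attachment plates, against 261 and 186 on attachment plates. Both groups lay below the attachment arrays, which were themselves far apart. IL4R fell by 0.67 ± 0.14 with FP001 (SE; limma adjusted p = 0.00863), 1.59-fold lower, and by 0.54 ± 0.14 without (adjusted p = 0.0332), 1.45-fold lower. Attachment replicate 2 was the brighter array, and without it the differences were −0.42 with FP001 (adjusted p = 0.0864) and −0.29 without (adjusted p = 0.261). The call without FP001 was also lost when any 1 of its 3 low-attachment arrays (adjusted p = 0.0528, 0.0868 and 0.072) or FP001 replicate 2 (0.0541) was left out.

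IL17RD, also known as SEF and an inhibitor of fibroblast growth factor signalling, had 30.3, 31.3 and 33.4 with FP001 and 31.8, 32.4 and 30.6 on low-attachment plates, against 44.4 and 43.3 on attachment plates. The 6 low-attachment arrays lay close together and below both attachment arrays. IL17RD fell by 0.47 ± 0.11 with FP001 (SE; limma adjusted p = 0.0148), 1.38-fold lower, and by 0.47 ± 0.11 without (adjusted p = 0.0216), 1.39-fold lower. With 1 attachment array left, the adjusted p was 0.0944 and 0.0602 with FP001 and 0.123 and 0.0911 without, and the call without FP001 was lost when low-attachment replicate 1 (0.0526) or 3 (0.0644) was left out. All 6 interleukin-17 receptor genes were tested, and the other 5 were not called. IL17RA, the chain these receptors have in common, had 192, 175 and 179.6 with FP001 and 162, 177 and 156 on low-attachment plates, against 160.9 and 160.4 on attachment plates. IL17RB differed from attachment by 0.41 ± 0.14 with FP001 (adjusted p = 0.0662), and IL17RC by 0.32 ± 0.15 (adjusted p = 0.144).

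IL6R, the binding chain of the interleukin-6 receptor, was higher on all 6 low-attachment arrays without passing the test. Over all genes tested, 52.8% did not overlap with attachment in either direction with FP001, and 45.6% without. IL6R had 119, 141 and 168 with FP001 and 129, 182 and 135 on low-attachment plates, against 90.7 and 109.7 on attachment plates. Its difference was 0.51 ± 0.18 with FP001 (SE; limma adjusted p = 0.0667; 95% interval 0.12 to 0.89) and 0.56 ± 0.18 without (adjusted p = 0.0702; 0.17 to 0.94). Both differences were called without FP001 replicate 1 (adjusted p = 0.0434 and 0.0483), the first also without low-attachment replicate 2 (0.0428), and both after quantile normalization (0.0373 and 0.049). IL1RAP, the shared chain of interleukin-1 family receptors, had 48.4, 37.2 and 35.7 with FP001 and 34.4, 38.5 and 38.7 on low-attachment plates, against 48.0 and 42.0 on attachment plates, and was not called. Of the 21 interleukin receptor probe sets 13 were tested, 2 fell in each comparison with attachment and none rose. These 2 were 15.4% of the 13, while 19.5% of all genes were called with FP001 and 10.1% without. After quantile normalization 2 rose with FP001 and 1 without, and 2 fell in each. Of all 10916 genes, 2209 and 1124 were called after it.

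Most chemokine receptors lay below the array medians. Of 14, 3 were tested (CCR7, CXCR3 and CXCR4) and none was called. After subtraction of the array median 1 of the 3 fell with FP001 against attachment. CXCR4, the receptor of CXCL12, had 29.3, 28.3 and 29.1 with FP001 and 25.9, 22.7 and 26.8 on low-attachment plates, against 25.5 and 24.7 on attachment plates. The FP001 arrays were above all others, and the difference of 0.20 from attachment had an adjusted p of 0.267. CXCR2 stayed between 13.0 and 15.4 and CCR2 between 8.47 and 13.5 on the 8 arrays, below the array median on each, so the receptors of the neutrophil attractants and of CCL2 were not tested.

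The other symbols gave no call without further scaling. After subtraction of the array median, and after quantile normalization, a fall with FP001 against attachment was called among them. IL18BP, a secreted decoy of IL18, had a mean of 44.0 with FP001, 46.4 on low-attachment plates and 52.7 on attachment plates, a difference of −0.26 with FP001 (limma adjusted p = 0.207). CCRL2, an atypical receptor that binds chemerin, differed by 0.35 with FP001 (adjusted p = 0.128), and the antisense transcript IL12B-AS1 by −0.42 (adjusted p = 0.0599). CCRL2 lay below the array median on both attachment arrays, so it entered the test only through the groups where it was high. A second probe set of IL12B-AS1, too dim to test, went the other way. Its means were 20.5 with FP001, 20.3 on low-attachment plates and 17.9 on attachment plates.

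Ligands and receptors had median differences between 0.01 and 0.14 in the 3 comparisons. With FP001 the median difference from attachment was 0.09 for the 30 ligands and 0.14 for the 16 receptors, on low-attachment plates 0.03 and 0.01, and between FP001 and low attachment 0.11 and 0.04. Over all genes tested the medians were 0.02, 0.01 and 0.01. With FP001 against attachment 21 of the 30 ligands and 11 of the 16 receptors were above 0, where 52.5% of all genes were. On low-attachment plates these were 16 and 9 (51.5% of all genes). Between FP001 and low attachment they were 23 and 12 (51.6%). The gap between the ligand and the receptor median was −0.048, 0.026 and 0.066 in the 3 comparisons. A different gap was taken on each single array, between the median deviation of ligands and that of receptors. It varied between arrays of a group with an SD of 0.0306. That SD does not measure the spread of the gaps in the 3 comparisons, so whether they exceed it was not tested. By counts, 3 ligands rose and 1 fell with FP001, and 1 rose and 3 fell without it, out of 30. That is 13.3% in each, where 19.5% of all genes were called with FP001 and 10.1% without. IL34, 1 of the 3 that rose, passed the filter only through the groups where it was high, and CXCL8 missed it. The balance of rises and falls is therefore not independent of the filter. Of the 16 receptors, 2 fell and 0 rose in each of these comparisons, where 11.4% and 5.76% of all genes fell.

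**Figure D3:**
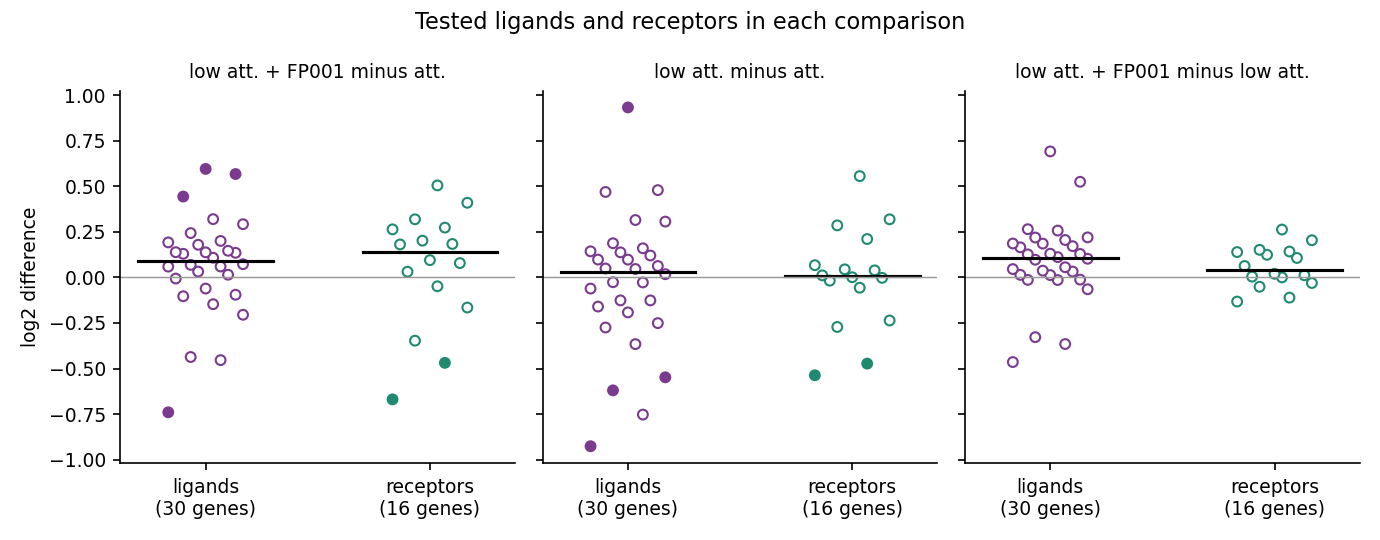
Log2 difference of each tested ligand (30 genes) and receptor (16 genes) in the 3 comparisons, with FP001 minus attachment on the left, low attachment minus attachment in the middle and FP001 minus low attachment on the right. Filled points had an adjusted p under 0.05 and lines are medians, which lie between 0.01 and 0.14 in all 6 columns.

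**Figure D4:**
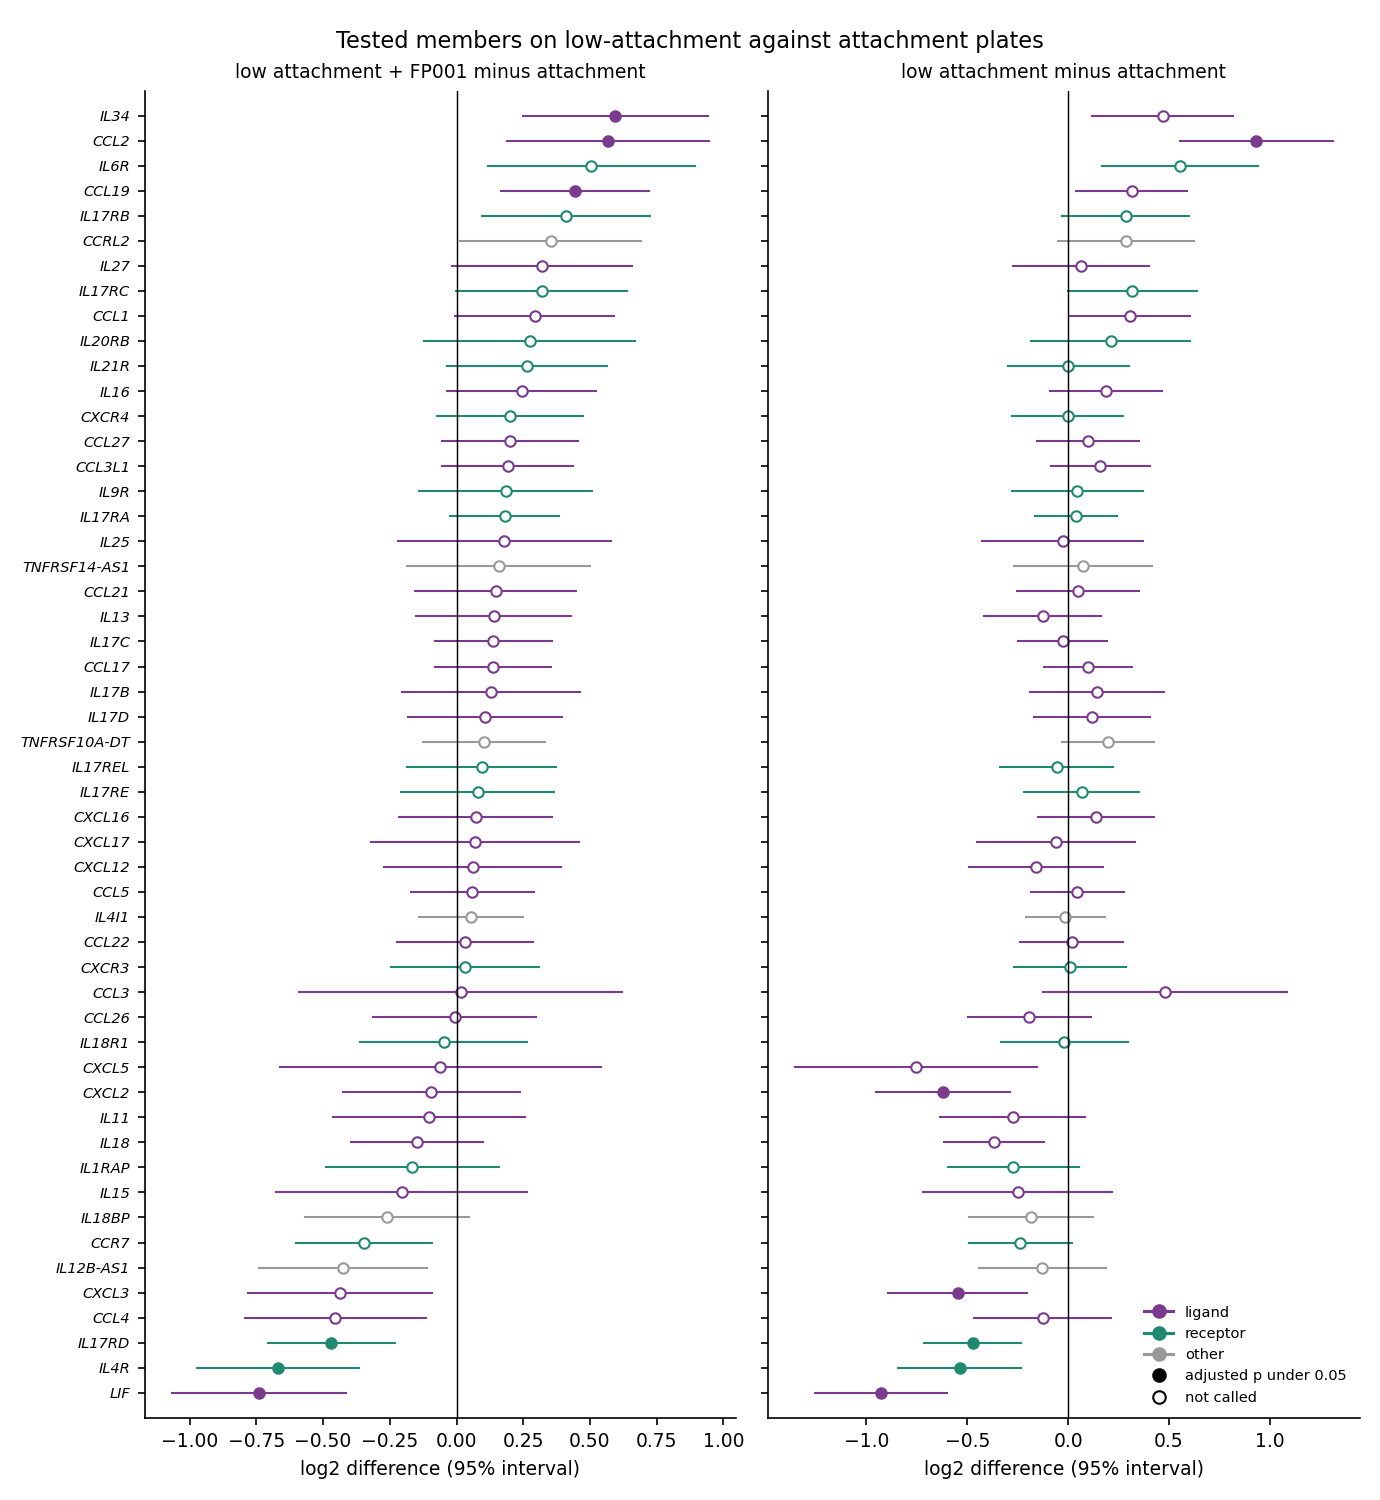
Log2 difference from attachment plates of the 52 tested members, with FP001 on the left and without it on the right; points are estimates, lines their 95% intervals, and filled points had an adjusted p under 0.05. LIF (−0.74 with FP001 and −0.93 without) and IL4R (−0.67 and −0.54) lie far below 0, and CCL2 (0.57 and 0.93) far above it.

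Genes that act downstream of these receptors were read from lists chosen by name. Of 25 JAK-STAT genes 15 were tested; 1 rose and 6 fell with FP001, where 8.08% of all genes rose and 11.4% fell, and 1 rose and 5 fell without it, where 4.31% rose and 5.76% fell. STAT4 fell by 1.14 ± 0.21 with FP001 (SE; limma adjusted p = 0.00523) and by 1.06 ± 0.21 without (adjusted p = 0.0114). JAK2, the kinase bound to many cytokine receptors, fell by 0.85 and 0.68 (adjusted p = 0.00537 and 0.0222). SOCS3, the feedback inhibitor of the receptor complex that LIF and interleukin-6 share, fell by 0.58 and 0.64 (adjusted p = 0.00856 and 0.0084). JAK1 fell by 0.55 and 0.46 (adjusted p = 0.0119 and 0.0376). STAT3 fell by 0.55 with FP001 (adjusted p = 0.0122), while STAT5A rose by 0.47 with FP001 and by 0.53 without (adjusted p = 0.0276 and 0.0252). The list's median was −0.14 with FP001 and −0.22 without, against 0.02 and 0.01 over all genes. Without 1 attachment array, each of these calls was lost for one of the 2 choices at least, with adjusted p up to 0.159 for JAK2, 0.0757 for SOCS3, 0.102 for STAT4, 0.217 for JAK1, 0.128 for STAT3 and 0.132 for STAT5A. The fall of JAK1 without FP001 held in 2 of 8 such fits, and the rises of STAT5A in 5 and 4 of 8.

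Of 28 NF-kB genes 16 were tested, 2 fell with FP001, 1 fell without it and none rose, which is near the 11.4% and 5.76% of all genes that fell. The list had medians of −0.12 and −0.06. Between FP001 and low attachment its median was −0.14, with 2 genes above 0 and 14 below, where 51.6% of all genes were above 0. None of the 16 was called there, and a link to the CXC chemokines was not tested. BCL3, a nuclear member of the IkB family, fell by 0.91 ± 0.10 with FP001 (SE; limma adjusted p = 0.000491) and by 0.71 ± 0.10 without (adjusted p = 0.00289). It was called in 8 of 8 fits that left out 1 array in both comparisons. RELA, the main activating subunit, fell by 0.35 with FP001 (adjusted p = 0.021), lost without attachment replicate 2 (adjusted p = 0.172) and without FP001 replicate 1 (0.0504) or 2 (0.0657).

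Of 13 adaptors of interleukin-1 and Toll-like receptors 10 were tested, and 3 rose in each comparison with attachment, where 8.08% of all genes rose with FP001 and 4.31% without. The list had medians of 0.17 with FP001 and 0.25 without, and 3 of the 10 lay below 0 in each comparison. IRAK1, a kinase of this pathway, rose by 0.74 ± 0.09 with FP001 (SE; limma adjusted p = 0.000587) and by 0.68 ± 0.09 without (adjusted p = 0.00139), and held in all 8 fits that left out 1 array in both. PELI2, an E3 ligase that binds IRAK proteins, rose by 0.96 and 0.65 (adjusted p = 0.00224 and 0.0226); the rise without FP001 was lost without attachment replicate 2 (0.194) and without low-attachment replicate 2 (0.065) or 3 (0.0529). TOLLIP, an inhibitor of the same pathway, rose by 0.27 and 0.30 (adjusted p = 0.0485 and 0.0466), and these calls held in 0 and 1 of the 8 fits.

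Relatives that carry other symbols also had calls. Of 19 genes of the interleukin-6 family and colony stimulating factors 9 were tested, of which 3 rose and 1 fell with FP001, and 1 rose and 1 fell without, with medians of 0.04 and −0.02. Of all genes, 19.5% were called with FP001 and 10.1% without. OSMR, the oncostatin M receptor, fell by 0.98 ± 0.13 with FP001 (SE; limma adjusted p = 0.000854) and by 0.68 ± 0.13 without (adjusted p = 0.0084), the second lost without attachment replicate 2 (0.0934). CRLF2, the receptor chain for TSLP, rose by 0.84 with FP001 and by 0.69 without (adjusted p = 0.00163 and 0.00759), the second lost without attachment replicate 3 (0.0574). CSF3, the granulocyte growth factor G-CSF, rose by 0.38 with FP001 (adjusted p = 0.0401), a call that held in 4 of 8 fits and had an adjusted p up to 0.165 without attachment replicate 3. Of 25 chemokine and TNF superfamily genes under other symbols 9 were tested, with medians of 0.21 with FP001 and 0.09 without, and 1 fell in each comparison. EDA2R, a receptor of the TNF receptor superfamily, fell by 1.05 with FP001 and by 0.93 without (adjusted p = 0.00509 and 0.0135), and both calls were lost without attachment replicate 2 (0.0643 and 0.123). Of 15 genes of death receptor signalling 7 were tested, with medians of −0.02 and 0.03, and FADD, the adaptor of death receptors, rose by 0.39 with FP001 (adjusted p = 0.0268), a call that held in 4 of 8 fits and had an adjusted p of 0.19 without attachment replicate 2. In none of these 6 lists was a gene called between FP001 and low attachment.

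With the array that was left out added back, 0 genes and 0 members were called by limma in any comparison. At an unadjusted p under 0.05 there were 2 members and 317 genes with FP001 against attachment, 1 member and 190 genes without it, and 0 members and 10 genes between FP001 and low attachment. On that array LIF had 162 and IL4R 359. Its rank correlation with the other arrays was near 0, and whether its values belong to the genes named was not tested. The differences of LIF and IL4R with all 9 arrays were −0.71 and −0.90 with FP001 and −0.89 and −0.77 without it. CCL19 differed by 0.41 with FP001 and CXCL2 by −0.36 without. CCL2 had 289 on that array and differed by −0.08 with FP001 and 0.29 without, CXCL3 had 6.1 and differed by 0.26 without FP001, IL17RD had 5.3 and differed by 0.55 in both comparisons, and IL34 had 56.5 and differed by 0.08 with FP001.

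How the share of higher calls over all genes came out depended on scaling. Of all genes called, 41.5% were higher with FP001 than on attachment plates, against 56.2% after quantile normalization, and 42.8% were higher without FP001, against 54.4% after it. The members called kept their direction under quantile normalization, subtraction of the array median and a pseudocount of 16.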

How the data were processed

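Total RNA of A549 cells was measured on 9 Affymetrix arrays, 3 for each condition, from 100 ng of total RNA per the labels' protocols. The deposited intensities, 1 per probe set and array on a linear scale, were made by the authors with MAS5, per the submitters' processing notes. The MAS5 version was not given in the sources used here. Sample titles gave the group and the replicate number, and each column was matched by accession. Gene names are those of GEO's platform annotation, which can be old; 16098 of 53617 probe sets had one.

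Values were log2 intensities without further scaling. A probe set was tested if at or above the array median on 3 or more of 8 arrays, and the brightest one stood for each of 10916 genes (455 had several). The 3 group means were fitted with limma 3.58.1 in R 4.3.3 (lmFit, eBayes with trend; 5 residual and 5.6 prior degrees of freedom), with two-sided tests and Benjamini-Hochberg adjustment over all genes. The number of arrays limits precision. The fit was tested on simulated data.

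Deviations of same-numbered low-attachment arrays with and without FP001 from their group means correlated at 0.483, 0.309 and 0.231, so numbers were taken to pair these arrays; the pairing comes from the data, since the labels give only the number. For attachment replicates 2 and 3 the values lay between −0.256 and 0.138, and no pairing was taken.

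Members and lists were chosen with earlier results of these data known. Values on every array are given for members called in any test, for a set list of well known cytokines and receptors, and for the uncalled members with the largest and smallest difference in each comparison. For each list and comparison, up to 4 called genes with the largest absolute difference are named. STAT3 lay outside that rule. So did SOCS7 of the JAK-STAT list, which was called lower in both comparisons with attachment and is not described above. Any other named gene was chosen after its values were seen. Promoters (250 bases before to 50 after the gene start) came from RefSeq, GRCh38.p14. Alternatives were all 9 arrays, other scalings, filters and probe set choices, a replicate block, and leaving out each array.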

Additional observations from a re-analysis of the deposited data

Results flagged for a closer look

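Attachment replicate 1 was not used in the comparisons. On it 56 of the 112 member probe sets read higher than on all 8 other arrays, 48 read lower than on all 8 and 8 lay within their range. IL11 read 2919 there, against 77.5 to 122 on the others, and CXCL5 read 9.8, against 1389 or more. What sets this array apart was not tested.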

How the results depend on the processing

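With all 9 arrays, 0 genes and 0 members were called in every comparison and in the test over 3 groups. Of the 12 called differences 4 then turned round, those of CCL2 (−0.076) and IL17RD (0.55) with FP001 and of CXCL3 (0.26) and IL17RD (0.55) without, all against attachment; of 39 uncalled ones of named members 10 did, among them CCL3 without FP001 (−0.51). The gap between ligand and receptor medians became −0.51 with FP001 and −0.47 without. With all 27942 probe sets that passed the filter tested, 3877 probe sets were called with FP001 and 1 between FP001 and low attachment. Of these 27942, 11711 carried a gene name, so the counts are not of genes. In that fit 3 members were called without FP001. Without the trend, 0 genes were called between FP001 and low attachment; with no filter the gap with FP001 was −0.014.

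Leaving out each array in turn gave 661 to 2303 genes and 1 to 7 members with FP001 against attachment, 359 to 1301 genes and 1 to 7 members without it, and 0 to 11 genes between FP001 and low attachment, against 2126, 1100 and 12 genes. The lowest counts against attachment came without attachment replicate 2, and 3 members were called on low attachment without attachment or low-attachment replicate 3. The test over 3 groups called 1 to 6 members. The gap between medians ran from −0.048 to −0.0054 with FP001, −0.036 to 0.072 without, and 0.021 to 0.078 between FP001 and low attachment.

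With the replicate block, 142 genes and 2 members were called between FP001 and low attachment, and 466 genes and 2 members with the 6 low-attachment arrays alone, a fit chosen after seeing the data. Against attachment, where numbers did not pair the arrays, the block gave 2367 genes and 7 members with FP001 and 1375 and 9 without; CCL19 was lost (adjusted p = 0.0556), IL6R and CXCL3 (0.0385) were added with FP001, and CXCL5, IL18 and IL6R without. For named members, leaving out an array lost 34 calls and gained 6. It turned round 0 of 96 called and 16 of 312 uncalled differences, such as CCL3 and CXCL5 with FP001. The other alternatives, all 9 arrays among them, lost 18 calls that kept their direction and gained 12. A further 4 calls were lost with their direction turned round, all with all 9 arrays. The cause of each change was not tested. Signal over background limits the 58 dim symbols.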

Other observations

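Of the 110 symbols, 58 had no probe set bright enough to test, with intensities of 2.52 to 60.4 on the 8 arrays. Without a filter, 1 of the 58 was called in each comparison with attachment, where 13.3% of all genes were called with FP001 and 6.68% without. These were CXCL8 without FP001 and IL17F, an interleukin of T cells that lay below the median on all 8 arrays, with FP001 (0.56 ± 0.16 on the log2 scale, SE; limma adjusted p = 0.0415), at mean intensities of 12.4 with FP001, 11.4 on low-attachment plates and 8.45 on attachment plates. CCL20, a chemokine of epithelial cells, stayed between 8.5 and 10.9 on all 8 arrays. IL32 had 26.2, 18.3 and 17.1 with FP001 and 19.7, 17.3 and 25.9 on low-attachment plates, against 20.7 and 19.1 on attachment plates. IL7R, the interleukin-7 receptor, was dim on 7 of the arrays and had 60.4 on attachment replicate 2, against 13.8 on attachment replicate 3.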
